A study of Mus musculus with 2 samples.

Results

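The cytosolic ribosomal protein genes were taken as the gene symbols that begin with Rpl or Rps followed by a digit, together with Rpsa, Rplp0, Rplp1 and Rplp2. Kinase genes of the Rps6k family (10 symbols) and symbols marked as pseudogenes with "-ps" (5 symbols) were left out. This gave 86 of the 32285 genes in the feature tables: 31 proteins of the small (40S) subunit, 46 of the large (60S) subunit and 9 paralogs or other symbols that share the naming pattern. Their transcripts made up 12.2% of all unique molecular identifiers (UMIs, one per captured transcript molecule) in the normoglycemic library and 14.1% in the diabetic library.

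The cells were leukocytes sorted from mouse gingiva after 2 weeks of bacterially induced inflammation, with a waiting period of 2 weeks. One library came from normoglycemic mice and 1 from mice with type-I diabetes mellitus induced by streptozotocin, a compound toxic to insulin-producing beta cells. All mice of both groups were CD11CCre-/-;FoxoLL on a mixed C57B6-FVB background: loxP sites lay around exon 2 of Foxo1, and no Cre was present to remove it. Gingival cells of 4 mice were pooled per group, DAPI+ dead cells, CD31+ endothelial cells and Ter-119+ red cells were sorted away, and CD45+ leukocytes were collected with 20% enrichment of CD11c+CD45+ cells. With 1 pooled library per condition there are no replicates, so no p-values are given. All intervals are exact 95% intervals that cover counting error only, and the effects of diabetes, of the mice pooled and of the library preparation cannot be told apart.

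Each ribosome carries about the same set of proteins, 1 copy of most of them, and cells make these proteins in proportion to one another. The mRNAs of mammalian ribosomal proteins are short and abundant, and most begin with a run of pyrimidines, the 5′ TOP motif, through which growth signals set their translation. Lymphocytes are known for a high share of ribosomal protein mRNA, and mature neutrophils, which have ended growth and division, for a low one.

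The matrices held 11280 normoglycemic and 10496 diabetic barcodes, with medians of 5161 and 4542.5 UMIs. Cells were assigned to classes by marker genes, and 9109 normoglycemic and 8561 diabetic cells received a class. In genes kept out of the gates, 95 of 97 check values were higher in their own class than in cells of other classes. The exceptions were Klra2 in monocyte-like and Klra8 in natural killer-like cells. For markers of the T-like, natural killer-like and innate lymphoid-like classes, the cells compared with left out all of these classes. How well these classes were separated from each other was therefore not tested. Comparisons used the 7 classes that held 100 or more cells in both libraries. The diabetic library also held cells that carried markers of fibroblasts (184), mural cells (215), keratinocytes (70) and Schwann cells (51), against 16, 3, 5 and 4 such cells in the normoglycemic library, although both sorts selected CD45+ cells.

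Ribosomal protein transcripts took a larger share of UMIs in the diabetic than in the normoglycemic library in each of the 7 classes, and the classes differed far more from one another than the libraries did. B-like cells were highest in both libraries and neutrophil-like cells lowest. In the 265 normoglycemic and 135 diabetic B-like cells the share was 34.4% and 39.8%, a ratio of 1.16 (1.15 to 1.16). In the 695 and 255 αβ T-like cells it was 25.5% and 32.2%, a ratio of 1.26. These lymphocyte-like classes thus gave the largest part of their transcripts to ribosomal proteins. In the 464 and 370 conventional dendritic cell (DC)-like cells the share was 22.4% and 24.4%, a ratio of 1.09. In the 126 and 123 γδ/type 17 T-like cells, a class gated on interleukin-17-type lymphocyte genes, it was 20.8% and 22.9%, a ratio of 1.10.

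The myeloid classes lay below these. In the 1312 and 1298 macrophage-like cells the share was 13.8% and 14.8%, a ratio of 1.07. In the 701 and 737 monocyte-like cells it was 11.6% and 15.6%, a ratio of 1.34, so monocyte-like cells were below macrophage-like cells in the normoglycemic library and above them in the diabetic library. In the 5275 and 4848 neutrophil-like cells it was 1.701% and 2.33%, a ratio of 1.37 (1.36 to 1.37). The largest ratios were therefore in neutrophil-like, monocyte-like and αβ T-like cells and the smallest in macrophage-like cells.

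**Figure D1:**
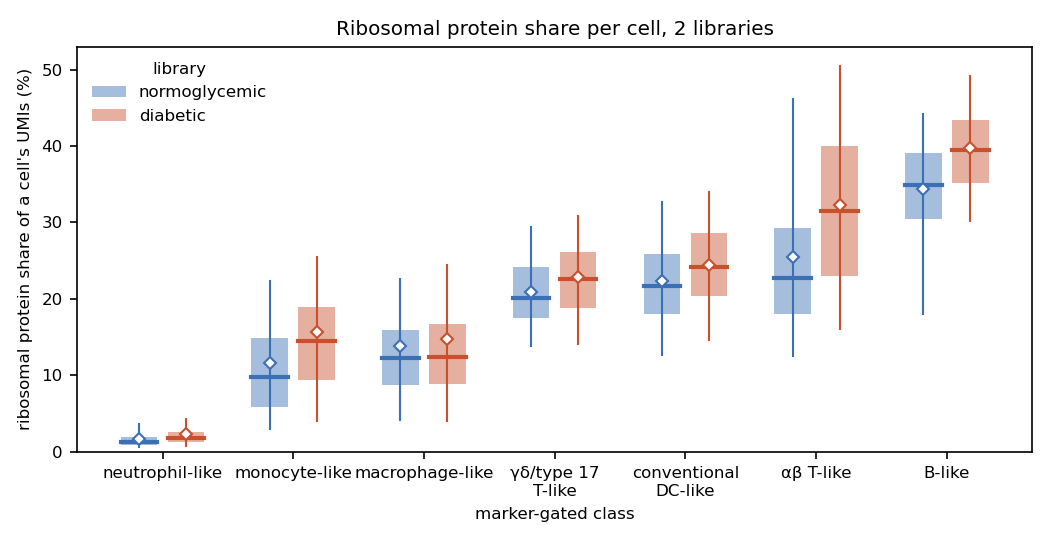
Ribosomal protein share of UMIs (percent of all UMIs of the class) by marker-gated class and library. Boxes span the quartiles of the share per cell, thick lines mark the median cell, thin lines the 5th to 95th percentile of cells (not replicates), and diamonds the summed share; the diabetic diamond lies above the normoglycemic one in all 7 classes, from 1.701% and 2.33% in neutrophil-like to 34.4% and 39.8% in B-like cells.

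The shift was also present in the typical cell, though cells of a class overlapped widely. The median share per cell was 1.30% in normoglycemic and 1.77% in diabetic neutrophil-like cells, 9.82% and 14.5% in monocyte-like cells and 22.7% and 31.5% in αβ T-like cells. In macrophage-like cells the per-cell medians were 12.2% and 12.4%, closer than the summed shares. The counts behind these shares differed between classes. The median neutrophil-like cell held 54 ribosomal protein UMIs in the normoglycemic and 63 in the diabetic library, and the median monocyte-like cell 1012 and 1365. In B-like cells the medians were 1600 and 1614 ribosomal protein UMIs, while all other UMIs were 2943 and 2458 per cell, so the higher share there came with fewer other transcripts captured. In macrophage-like and γδ/type 17 T-like cells the median ribosomal protein UMIs per cell were lower in the diabetic library, at 1333 against 1277.5 and 1283.5 against 1183.

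The direction was the same in smaller groups of cells, with some exceptions. In mature DC-like cells (56 and 75 cells) the share was 16.1% and 21.0%. It was 9.30% and 11.3% in mast cell-like cells (37 and 24) and 21.97% and 26.1% in natural killer-like cells (50 and 35). Type 2 innate lymphoid-like cells (74 and 20) had 26.9% and 26.6%. Cells were also compared within bands of total UMIs, for bands with at least 30 cells in each library. Monocyte-like cells of 2000 to 5000 UMIs gave a ratio of 0.984 (medians of 3390.5 and 4002 UMIs), and macrophage-like cells 0.866 at 500 to 2000 and 0.967 at 2000 to 5000 UMIs, whereas the deeper bands of both classes were above 1. In monocyte-like cells called female (51 and 187 cells) the share was 16.95% and 16.98%, a ratio of 1.002 (0.995 to 1.009), and in those called male 11.3% and 14.8%.

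Other measures moved with the diabetic library. Gm42418, a gene model that lies over ribosomal RNA repeats, was 1.78-fold to 3.01-fold higher in the 7 classes. The nuclear RNA Malat1 was lower in 6 classes (0.716-fold to 0.871-fold) and 1.03-fold in macrophage-like cells. Mitochondrially encoded transcripts took 3.77% of UMIs in normoglycemic and 2.39% in diabetic B-like cells, and 2.41% and 1.82% in monocyte-like cells. S100a8 and S100a9, granulocyte transcripts that reach other droplets as free RNA, summed to 2228 and 344 counts per 1000000 UMIs (CPM) in B-like cells and to 843 and 339 CPM in αβ T-like cells. In neutrophil-like cells the macrophage C1q genes summed to 71.3 and 110 CPM. The part of these measures in the ribosomal protein shift was not tested.

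Gene by gene, most ribosomal protein transcripts had higher CPM in the diabetic library. A member was compared in a class if it averaged at least 10 CPM over both libraries and had at least 50 UMIs in both together, which 82 or 83 of the 86 did in each class. The common shift, the median log2 ratio of diabetic over normoglycemic CPM over these members, was 0.50 in neutrophil-like, 0.46 in monocyte-like, 0.34 in αβ T-like, 0.24 in B-like, 0.15 in conventional DC-like, 0.15 in γδ/type 17 T-like and 0.13 in macrophage-like cells. The median over all genes compared was 0.09, -0.01, -0.10, -0.15, -0.0036, -0.09 and -0.03 in the same order. Members with a log2 ratio below 0 were 2 of 82, 2 of 83, 2 of 83, 6 of 83, 11 of 83, 11 of 82 and 13 of 83 in the same order, so the last 3 classes held the most members that went against the shift. A positive median over the members was present in every class, on this scale and after edgeR's TMM scaling, under which it was 0.37 in both neutrophil-like and B-like cells, the classes in which this scaling moved it by over 0.1.

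Counts of single members past a fixed size show how the shift was spread. In monocyte-like cells 62 of 83 members had an interval wholly more than 25% above equality, where 5.94% of all genes compared did. In αβ T-like cells 34 of 83 did, beside 2.47% of all genes. In neutrophil-like cells 60 of 82 did, beside 24.3% of all genes, a class in which many transcripts differed between the libraries in both directions. In B-like cells 4 of 83 did (1.72% of all genes), in macrophage-like cells 1 of 83 (2.57%), in conventional DC-like cells 1 of 83 (3.97%) and in γδ/type 17 T-like cells 0 of 82 (1.49%). An interval wholly more than 20% below equality was found for 1 member in neutrophil-like cells (18.1% of all genes), 2 in macrophage-like cells (5.22%) and 1 in γδ/type 17 T-like cells (3.56%), and for 0 in monocyte-like (8.93%), conventional DC-like (6.59%), αβ T-like (6.36%) and B-like cells (5.23%).

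**Figure D2:**
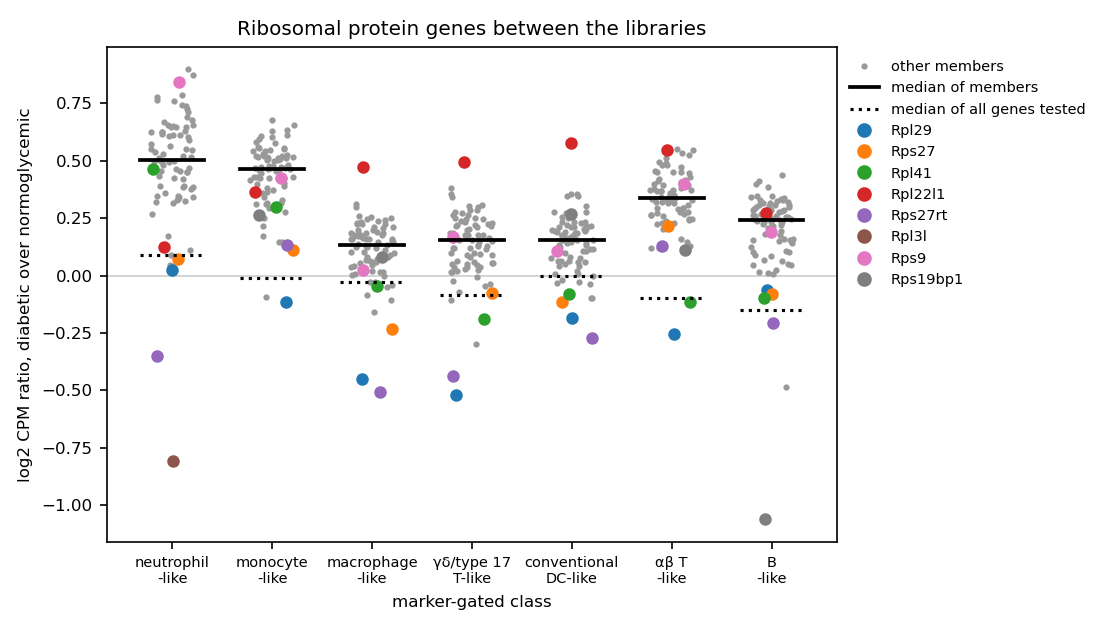
Log2 ratio of diabetic over normoglycemic CPM for each ribosomal protein gene compared, by class. Each point is 1 gene, solid lines mark the median of the members and dotted lines that of all genes compared; the medians run from 0.13 in macrophage-like to 0.50 in neutrophil-like cells, and single points lie well below the main cloud in most classes.

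A member was said to depart from the common shift where its interval, divided by the common shift of the class, lay wholly more than 25% above or 20% below 1. Of 579 pairs of member and class, 17 departed lower and 1 higher. The 17 and 1 came from 11 of the 84 members compared in any class. Lower departures were 8 in neutrophil-like, 3 in macrophage-like, 2 in monocyte-like, 2 in αβ T-like, 1 in γδ/type 17 T-like, 1 in B-like and 0 in conventional DC-like cells. Over all genes, measured from the all-gene median, 21.6%, 4.6%, 8.5%, 4.2%, 2.36%, 2.64% and 6.51% departed lower in these classes. Departures higher were 1 in conventional DC-like cells, where 4.06% of all genes did, and 0 in neutrophil-like (18.7% of all genes), macrophage-like (3.04%), monocyte-like (6.18%), αβ T-like (3.56%), γδ/type 17 T-like (2.25%) and B-like cells (4.15%). The members' shares lay below these backgrounds in each class, so the results below concern which members departed and not how many.

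Rpl29 departed lower in 5 of the 7 classes, the most of any member. It encodes a small protein of the large subunit and lies on chromosome 9 (chr9:106429454-106431568, GRCm38, plus strand). From the normoglycemic to the diabetic library it went from 890 to 651 CPM in macrophage-like cells, from 1278 to 889 CPM in γδ/type 17 T-like cells and from 1519 to 1274 CPM in αβ T-like cells. Its level was lower in these cells, where the median member was higher. Relative to the common shift its log2 departure was -0.58 in macrophage-like, -0.68 in γδ/type 17 T-like, -0.59 in αβ T-like, -0.58 in monocyte-like and -0.48 in neutrophil-like cells. In conventional DC-like cells (1336 and 1174 CPM) and B-like cells (1859 and 1780 CPM) the departures were -0.34 and -0.31 and did not reach the size required.

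The departure of Rpl29 was larger in the cells called female than in those called male in all 7 classes. Each pool held cells of both sexes by transcripts: cells with Y-linked UMIs and no Xist were called male, and cells with Xist and no Y-linked UMIs female (a split of the genes named here that was chosen after the data were seen). In female cells Rpl29 departed lower in 7 of 7 classes, by -0.92 to -1.56 on the log2 scale. In male cells it met the rule in 0 of 7, with values of -0.01 to -0.36, all below the common shift. In neutrophil-like cells, where the departure was -0.48, female cells held only 139 of 1944 normoglycemic and 135 of 1448 diabetic Rpl29 UMIs. Male neutrophil-like cells stood at -0.36, and cells without a call are not given apart. In macrophage-like cells, where the calls were most even (564 and 494 male, 438 and 471 female cells), Rpl29 was at 867 and 808 CPM in male cells and at 953 and 536 CPM in female cells. The normoglycemic female cells resembled the males of both libraries, and the diabetic female cells stood below all of them.

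Diabetic female cells were the lowest of the 4 groups of cells in the other lymphoid and dendritic classes too. In conventional DC-like cells Rpl29 was at 1354 and 1374 CPM in male and at 1328 and 607 CPM in female cells. In γδ/type 17 T-like cells it was at 1290 and 1236 CPM in male and at 1334 and 506 CPM in female cells, and in αβ T-like cells at 1483 and 1459 CPM and at 1607 and 1042 CPM. In B-like cells it was at 1661 and 2042 CPM in male and 1994 and 1202 CPM in female cells. In monocyte-like cells it was at 675 and 734 CPM in male and 1055 and 429 CPM in female cells, and in neutrophil-like cells at 75.1 and 84.9 CPM and at 464 and 116 CPM. The 55 normoglycemic neutrophil-like cells called female stood apart, with 6.91% of UMIs from ribosomal proteins beside 1.65% in the 2710 called male. The ratio in female cells ran from 0.249 in neutrophil-like to 0.648 in αβ T-like cells, and the ratio in male cells from 0.932 in macrophage-like to 1.23 in B-like cells. By the same rule 10.5%, 5.61%, 5.13%, 6.77%, 6.79%, 3.16% and 2.92% of all genes departed lower in female neutrophil-like, monocyte-like, macrophage-like, conventional DC-like, αβ T-like, γδ/type 17 T-like and B-like cells, beside 1 or 2 members per class. In male cells the shares of all genes were 19.9%, 8.63%, 4.31%, 4.83%, 2.62%, 3.7% and 3.45% in the same order. Each pool held 4 mice, so the sex and the single mouse behind these cells cannot be told apart.

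**Figure D3:**
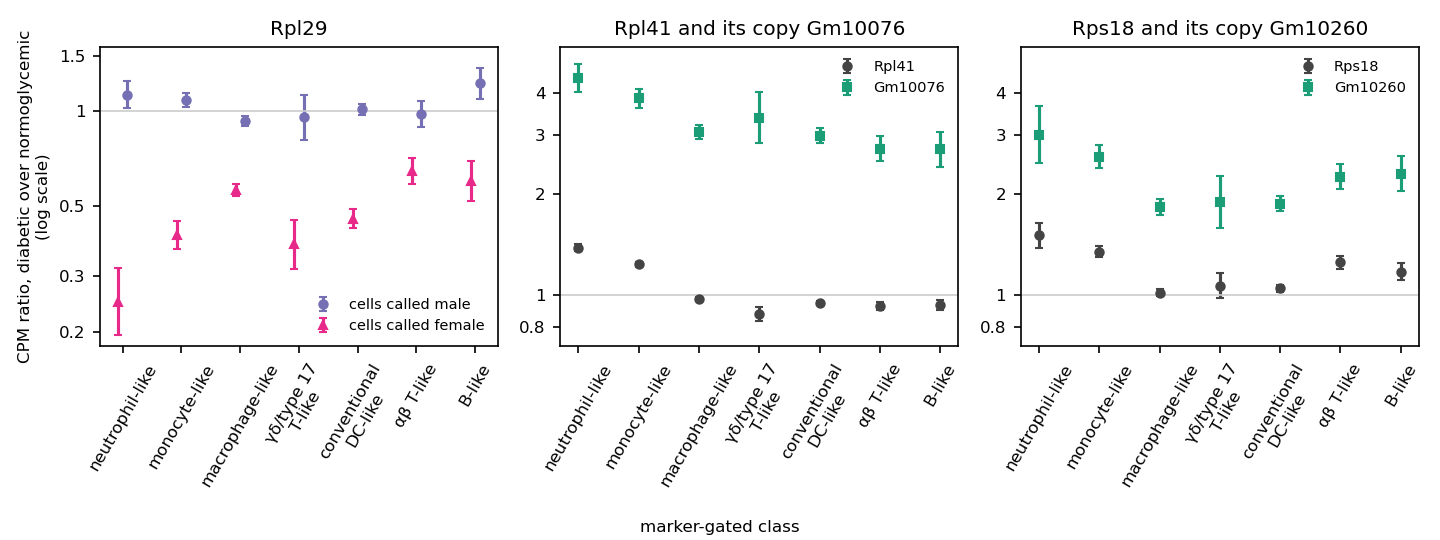
Ratio of diabetic over normoglycemic CPM by class (log axes) for Rpl29 in cells called male and female (left), for Rpl41 and its copy Gm10076 (middle), and for Rps18 and its copy Gm10260 (right). Bars are exact 95% intervals for counting error; Rpl29 ratios are 0.932 to 1.23 in male and 0.249 to 0.648 in female cells, and both copies lie above their members in all 7 classes.

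Rps27, a zinc finger protein of the small subunit (chr3:90212522-90213651, GRCm38, minus strand), departed lower in neutrophil-like, macrophage-like and monocyte-like cells. It was at 2436 and 2075 CPM in macrophage-like cells, at 2439 and 2631 CPM in monocyte-like cells and at 1164 and 1224 CPM in neutrophil-like cells, with departures of -0.36, -0.35 and -0.43. Its CPM ratio was 0.852, 1.08 and 1.05 in these classes, where the typical member was at 1.10, 1.38 and 1.42. Unlike Rpl29, Rps27 departed lower in male cells (4 classes) and in 0 classes in female cells. Its male and female departures were -0.43 and -0.27 in macrophage-like, -0.37 and -0.19 in monocyte-like and -0.42 and 0.10 in neutrophil-like cells. They were -0.28 and -0.05 in αβ T-like and -0.43 and -0.36 in B-like cells. In conventional DC-like (-0.26 and -0.27) and γδ/type 17 T-like cells (-0.23 and -0.27) they were close. Rps27rt, a retrogene-like copy on chromosome 9 (chr9:114982366-114982739, minus strand), departed by -0.85 in neutrophil-like and -0.64 in macrophage-like cells. Its annotated transcript matches that of Rps27 without a difference over 341 bases, so reads of the 2 genes can be told apart only where they run past this stretch, and Rps27rt held 8659 UMIs in all beside 419942 for Rps27.

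Rpl41, a peptide of the large subunit that is among the shortest proteins known, departed lower in αβ T-like cells, where it went from 5529 to 5106 CPM (departure -0.45). Its departure was below 0 in all 7 classes, with -0.34 in both γδ/type 17 T-like and B-like cells and -0.04 in neutrophil-like cells. With the UMIs of its near-identical copy Gm10076 added, it was 0.08 in neutrophil-like cells. Among members compared in all 7 classes, 4 departed lower in neutrophil-like cells alone. They were the large subunit genes Rpl23 (534 and 551 CPM, departure -0.46) and Rpl10 (370 and 380 CPM, -0.46), and the small subunit genes Rps29 (927 and 1001 CPM, -0.39) and Rps28 (264 and 281 CPM, -0.41). Each of these 4 was within 1.08-fold of its normoglycemic level, whereas the typical member was 1.42-fold higher. Rpl3l departed lower there too, but this was the only class in which its level allowed a comparison. In B-like cells Rps19bp1, which encodes a binding protein of Rps19 and no ribosomal protein, had 45 and 10 UMIs.

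The member that departed higher was Rpl22l1 in conventional DC-like cells. It encodes a paralog of Rpl22, an RNA-binding protein of the large subunit. Its level was 408 CPM in normoglycemic and 609 CPM in diabetic cells, a ratio of 1.49 (1.43 to 1.56). In macrophage-like cells it was at 280 and 388 CPM, just short of the rule, with a ratio of 1.26 (1.21 to 1.32) relative to the common shift. In γδ/type 17 T-like and αβ T-like cells its CPM ratios were 1.41 and 1.46, while in neutrophil-like cells (58.0 and 63.3 CPM) it stood below the common shift by 0.38. In conventional DC-like cells the ratio was 1.45 in male and 1.47 in female cells, and neither met the rule on its own. Rps9 in neutrophil-like cells also lay just outside the rule, at 981 and 1762 CPM, with a ratio relative to the shift of 1.27 (1.246 to 1.288). Its log2 departure was 0.15 in the 2710 and 1811 male neutrophil-like cells. In the 55 and 218 female cells, whose common shift was -0.76, it was 1.16 and met the rule.

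**Figure D4:**
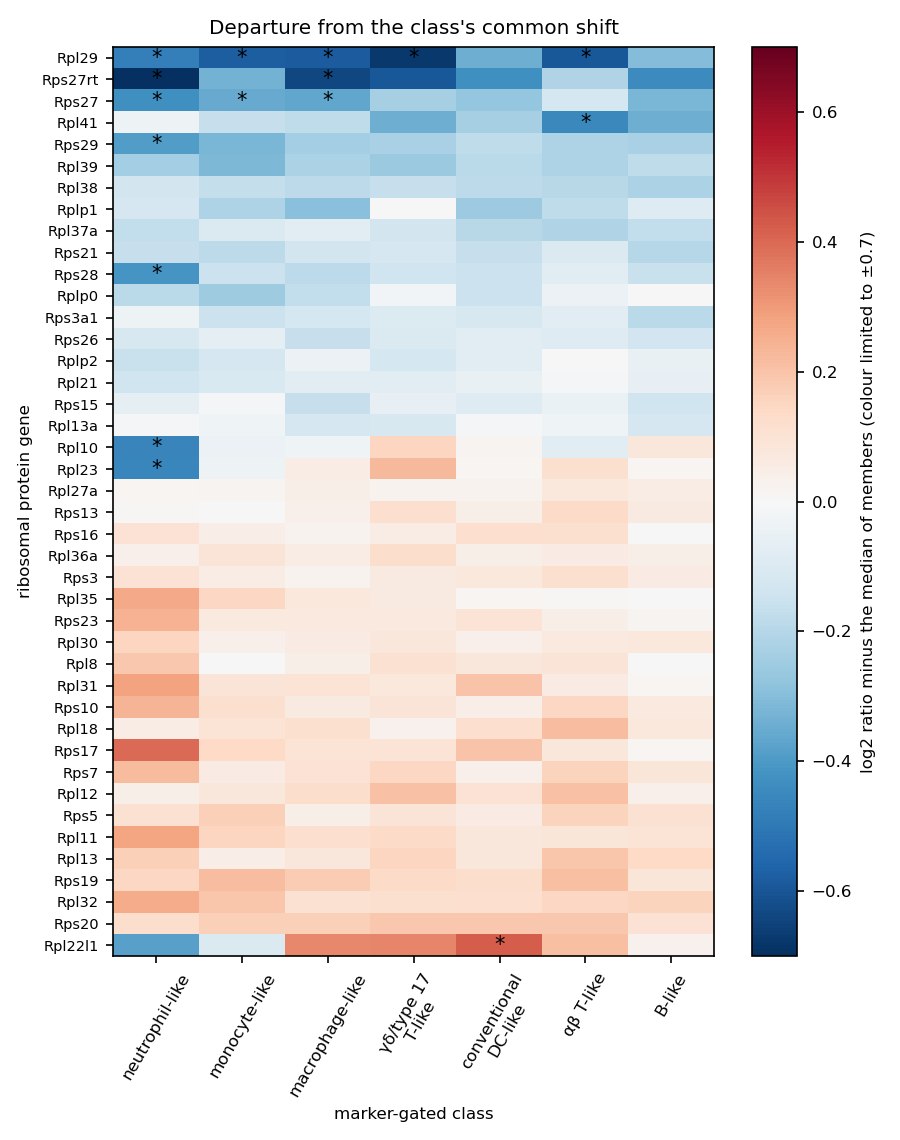
Departure of named ribosomal protein genes from the common shift (log2, diabetic over normoglycemic relative to the median member) in each of the 7 classes. Cells of the map are coloured by the departure and those that met the rule carry a star; Rpl29 is marked in 5 classes, Rps27 in 3, and Rpl22l1 is marked higher in conventional DC-like cells.

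Smaller departures had the same sign across classes for many members. Of the 81 members compared in all 7 classes, 18 lay below the common shift in every class and 21 above it in every class. The share of all genes that kept to 1 side of the all-gene median was not measured, so these counts have no background. Some members lay almost on the shift in a class, such as Rplp1 (-0.001 in γδ/type 17 T-like cells) and Rpl8 (0.002 in B-like cells). Rplp0 (-0.004 in B-like cells) and Rplp2 (-0.003 in αβ T-like cells) did so too. Those below in all included the short proteins Rps29, Rpl39, Rpl38, Rpl37a, Rps21 and Rps28 and the stalk proteins Rplp0, Rplp1 and Rplp2, which recruit elongation factors to the ribosome. Median departures of these genes ran from -0.23 for Rps29 to -0.08 for Rplp2. Those above in all were led by Rps20 (median 0.17), Rpl32 (0.14), Rps19 (0.14) and Rpl13 (0.14). Rpl12, a protein at the base of the stalk, was also above in all (median 0.10), unlike the stalk proteins named before. Across members, Spearman's rho between the departures of 2 classes was 0.457 to 0.84 over 21 pairs, as a description, since all classes share the same 2 libraries. Departures were weakly related to transcript length, with rho of 0.145 to 0.324.

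Many ribosomal protein genes have near-identical processed copies in the genome, and reads can be counted on either. Of the 86 members, 41 had an annotated copy with at least 95% identity over at least 60% of the transcript, and 7 members had such copies (8 in all) among the genes counted here, not counting copies such as Rps27rt that are members themselves. Rpl29 had 27 annotated copies, 1 of which was counted. Gm10076, a copy of Rpl41 on chromosome 14 (chr14:105681828-105682211, GRCm38), differs from the Rpl41 transcript at 2 of 383 aligned bases. It was at 23.6 and 105 CPM in neutrophil-like, 161 and 492 CPM in macrophage-like and 342 and 931 CPM in B-like cells, and its ratio was 2.72 to 4.44 over the 7 classes. Rpl41 itself had ratios of 0.876 to 1.38, so the copy took a larger part of their sum in the diabetic library. Over both libraries Gm10076 held 6.83% to 9.04% of the UMIs of the pair. With its UMIs added, the departure of Rpl41 was -0.33 in αβ T-like, -0.22 in B-like and -0.19 in γδ/type 17 T-like cells. In conventional DC-like, macrophage-like and monocyte-like cells it was -0.11, -0.05 and -0.03, and in neutrophil-like cells 0.08.

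Gm10260, a copy of Rps18 on chromosome 13 (chr13:97760072-97760632), was higher likewise, with ratios of 1.83 in macrophage-like to 3.01 in neutrophil-like cells, whereas Rps18 had 1.01 to 1.504. A further copy of Rps18, Gm11361, had ratios of 0.953 to 1.16. Rps18 is a small subunit protein at the head of the subunit, on chromosome 17 (chr17:33951999-33956001, minus strand). The 2 transcripts differ at 5 of 545 aligned bases, 4 of them in the coding sequence of 459 bases: T186C, A337C, G371A and G431A, counted from 1 at the first base of the Rps18 start codon, with the base of Rps18 first. The stretches around the last 2, from the GENCODE M21 transcripts, are printed because these single bases, here in capitals, are among the few that separate a read of the member from a read of the copy. The remaining difference lies outside the coding sequence, 26 bases from the transcript end.
Rps18 around base 371: ccatagagggctgcGccacttttggggcc
Gm10260 around base 371: ccatagagggctgcAccacttttggggcc
Rps18 around base 431: tggccgcaggggccGaactgtgggtgtat
Gm10260 around base 431: tggccgcaggggccAaactgtgggtgtat
With both copies added, the departure of Rps18 went from -0.11 to 0.04 in macrophage-like and from -0.02 to 0.13 in αβ T-like cells. Gm10076 and Gm10260 had ratios above 1 in male and in female cells in each class, with intervals that included 1 for both in the 55 and 218 female neutrophil-like cells. Whether these UMIs came from the copies or from the members was not tested.

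The makeup of the ribosomal protein transcripts, each member's share of member UMIs, was alike in most classes and different in neutrophil-like cells. In both libraries, 8 members took a share at least 1.5-fold higher and 24 a share at least 1.5-fold lower there than the median of the other classes. Rps9, a small subunit protein near the decoding site, took 5.77% of member UMIs in normoglycemic and 7.57% in diabetic neutrophil-like cells, 3.68-fold and 4.90-fold the other classes. Rps27 took 6.84% and 5.26%, 3.34-fold and 3.08-fold the others. These were the highest shares of any of the 86 members in neutrophil-like cells. Rpl37, Rps25 and Rps16 were 1.84-fold and 1.71-fold, 1.67-fold and 1.59-fold, and 1.598-fold and 1.65-fold higher.

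Among the lower members, Rpl12, a protein at the base of the stalk, was at 0.37 and 0.36 of the other classes' share, Rpl10a at 0.34 and 0.40, Rps4x at 0.39 and 0.41, and Rpsa, also known as the laminin receptor, at 0.38 and 0.41. The median neutrophil-like cell held 54 and 63 ribosomal protein UMIs, and the part of free RNA from other cells in this makeup was not tested. When cells carrying markers of a second lineage were kept, 5 members were higher and 6 lower.

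**Figure D5:**
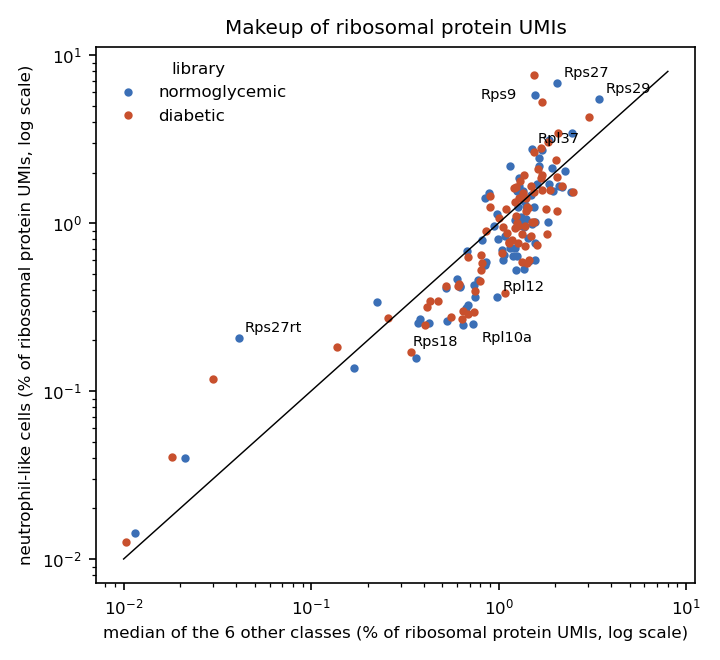
Share of ribosomal protein UMIs held by each member in neutrophil-like cells against its median share in the other 6 classes, in each library (percent, log axes). Each point is 1 gene and the diagonal marks equal shares; Rps9 (5.77% and 7.57%) and Rps27 (6.84% and 5.26%) stand above it, and Rpl12 and Rpl10a below.

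Several paralogs of ribosomal proteins also differed between classes. Rpl3l, the paralog of Rpl3 known from skeletal and heart muscle, had 826 UMIs in all. Neutrophil-like cells held 418 of these in the normoglycemic and 175 in the diabetic library, 0.0999% and 0.0417% of their member UMIs, and monocyte-like cells 24 and 30. In αβ T-like, γδ/type 17 T-like and B-like cells no UMI of it was counted. Rps27l, a p53-responsive paralog of Rps27, was at 684 and 640 CPM in conventional DC-like, 361 and 426 CPM in macrophage-like, 275 and 310 CPM in monocyte-like, 185 and 221 CPM in αβ T-like and 120 and 120 CPM in B-like cells. As a share of member UMIs it was 2.55-fold and 2.02-fold above the other classes in conventional DC-like cells and 0.19 and 0.16 of them in B-like cells.

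Rpl36al, a paralog of Rpl36a, was 2.01-fold and 1.95-fold above the other classes in monocyte-like cells (802 and 999 CPM). Rpl7l1, a nucleolar relative of Rpl7, was at 6.79 to 67.0 CPM over the 7 classes. Rpl39l, the testis-type paralog of Rpl39, had 111 UMIs in all, of which αβ T-like cells held 12 and 4, macrophage-like cells 9 and 14 and γδ/type 17 T-like cells 7 and 4. Rpl10l, the testis-type paralog of Rpl10, had 11 UMIs in all. Of core members, B-like cells were low in Rpl10 (0.61 and 0.63 of the other classes' share), αβ T-like cells were high in Rpl12 (1.53-fold and 1.602-fold), and monocyte-like cells were low in Rpl12 (0.57 and 0.56). Among the members with the most UMIs overall were Rps29 (769213, 3.52% of member UMIs), Rpl41 (551915), Rps24 (506633) and Rpl37a (456732).

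The start regions of several of these genes hold a run of pyrimidines near the annotated start. In windows of 30 bases centred on the annotated start in the RefSeq promoter table (GRCm38.p6), 27 of 66 members with an entry (40.9%) held a run of at least 8 C or T on the gene's strand, and 3760 of 27025 genes (13.9%) did. The run could lie anywhere in the window, before or after the start, so it need not be a 5′ TOP motif. Printed are the windows of members named above that differ in this feature, with the run in capitals.
Rps27, chr3:90213634-90213663, minus strand: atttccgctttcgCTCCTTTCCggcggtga
Rps9, chr7:3704026-3704055, plus strand: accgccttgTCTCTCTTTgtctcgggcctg
Rpl22l1, chr3:28805493-28805522, plus strand: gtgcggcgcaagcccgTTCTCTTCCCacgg
Rpl41, chr10:128549154-128549183, minus strand: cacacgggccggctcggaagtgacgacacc
Rpl41 has no such run in its window, which says only that these letters are not there. Rps27 and Rpl22l1, which departed in opposite directions, both have one. Of the other members that departed lower, Rpl10, Rpl23, Rps28, Rpl3l, Rps27rt and Rps19bp1 have none in their windows. Rpl29 and Rps29 had no entry.

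Genes that work with the ribosomal proteins shared the shift in part. Fau, which encodes a small subunit protein fused to a ubiquitin-like sequence, had CPM ratios of 1.06 in macrophage-like to 1.31 in monocyte-like cells. Rack1, a scaffold on the small subunit, was at 0.898-fold in γδ/type 17 T-like to 1.36-fold in neutrophil-like cells, and was below 1 in macrophage-like (0.937) and conventional DC-like cells (0.925) too. Translation factors (36 listed, 27 to 36 compared) had medians of -0.08 to 0.15. Their most abundant transcripts include Eef1a1, the elongation factor that delivers aminoacyl-tRNA, at 646 and 409 CPM in neutrophil-like cells and at ratios of 0.924 to 1.09 in the other classes.

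Ribosome biogenesis genes (35 listed, 7 to 31 compared) had medians of -0.09 to 0.25. In the growth control list (16 listed, 6 to 14 compared) medians ran from -0.29 to 0.37, and in B-like cells the median was -0.25 with 1 of 8 genes above 0, Myc, at 248 and 464 CPM. Genes of mitochondrial ribosomal proteins, which are encoded in the nucleus, had medians of 0.12 to 0.51, with Mrpl33 at 504 and 983 CPM in neutrophil-like cells. Transcripts of the mitochondrial genome itself had medians of -0.12 to -0.75, and mt-Nd3 was at 693 and 257 CPM in B-like cells. Cytosolic and mitochondrial ribosomal protein transcripts were thus both higher in the diabetic library, and mitochondrially encoded transcripts lower, in each of the 7 classes by these medians.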

How the data were processed

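The files held raw UMI counts per gene and cell, deposited by the authors, who made them with Cell Ranger (version 4.0.0 per the file headers, 6.0.2 per the submitters' processing notes) on mm10; the annotation release is not given in the sources used here. The 4 antibody features were kept apart. Cells with under 500 UMIs, under 200 genes or over 15% mitochondrial UMIs were removed. A cell took the class with the largest share of its markers detected (at least 3, and 0.1 ahead of the next class). Cells with at least 50% of the markers of a second lineage were left out (1105 and 1004), and no doublet caller was run. These gate rules, the study of copies and the tables of named genes by sex were set after the data were seen, and the members and lists were chosen with earlier results of these data known. The libraries shared 32 barcodes.

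UMIs were summed over a class and scaled to 1000000 (CPM). Shares carry Clopper-Pearson 95% intervals and ratios conditional binomial ones, both exact. A pseudocount of 0.5 UMIs entered each log2 ratio. Total depth was 89339733 and 78220582 UMIs. Named were up to 5 departing members per class and direction, members departing in at least 3 classes, up to 3 per class whose share of member UMIs differed from the other classes (1.5-fold in both libraries), the 5 with most UMIs, and the paralogs. Some items under this rule are not reported here. Members just outside a threshold, members on the same side in all 7 classes, and the copies were named after their values were seen. Genes were placed on GENCODE M21 (GRCm38), where all 86 members matched, and start windows came from RefSeq's table, which had entries for 66. Python 3.11.15, NumPy 2.4.6, SciPy 1.17.1, pandas 2.3.3, matplotlib 3.10.9, BLAST 2.17.0 (copies) and, under R 4.3.3, edgeR 4.0.16 (TMM factors alone) were used. The scripts were tested on simulated data. Alternatives changed cell filters, gates, depth, sex, denominators, scaling and thresholds.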

Additional observations from a re-analysis of the deposited data

Results flagged for a closer look

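In these results the cells called male and the cells called female differed in the opposite sense between the libraries, with counting intervals wholly on either side of 1. The difference was not tested, since each condition has 1 pooled library. In neutrophil-like cells the ribosomal protein share had a ratio of 1.37 in male and 0.612 in female cells, of which the normoglycemic library held 55. Rpl29 had ratios of 1.23 in male and 0.603 in female B-like cells, 1.09 and 0.407 in monocyte-like cells and 1.13 and 0.249 in neutrophil-like cells. Rpl41 had ratios of 1.14 and 0.857 in B-like, 1.04 and 0.891 in macrophage-like, 1.22 and 0.919 in monocyte-like and 1.42 and 0.633 in neutrophil-like cells. The common shift differed between male and female cells too, at 0.45 and 0.005 in monocyte-like and 0.53 and -0.76 in neutrophil-like cells. Relative to it, Rpl41 stood at -0.16 and -0.13 in monocyte-like and -0.03 and 0.10 in neutrophil-like cells. In B-like cells it stood at -0.12 and -0.42, and in macrophage-like cells at -0.09 and -0.27. Rps27 had ratios of 1.05 and 0.879 in monocyte-like and 1.09 and 0.629 in neutrophil-like cells. Relative to the common shift of the same cells, Rpl29 alone among these 3 genes departed lower in the female cells of all 7 classes.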

How the results depend on the processing

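The member share was higher in the diabetic library in 7 of 7 classes under every setting that kept whole classes except in cells called female, where it was in 6, with 1.002 in monocyte-like cells (main value 1.34). The median ratio over classes (1.16) was 1.16 without the top 8% of cells by UMIs and without rRNA-like genes, 1.17 in male and 1.08 in female cells, 1.14 without mitochondrial genes, 1.13 from per-cell medians and 1.23 with second-lineage cells kept. The median common shift (0.24) was 0.14 in female cells, 0.37 under TMM and 0.34 with second-lineage cells. Among settings with at least 30 cells in each library, directions reversed in female neutrophil-like cells (ratio 0.612, common shift -0.76), in macrophage-like cells of 500 to 2000 UMIs (0.866) and, at 2000 to 5000 UMIs, in macrophage-like (0.967) and monocyte-like cells (0.984). Smaller bands, not compared, included conventional DC-like cells of 2000 to 5000 UMIs (16 and 8 cells, 16.4% and 12.7%) and αβ T-like cells of 10000 to 20000 UMIs (48 and 15 cells, 24.9% and 23.8%). In neutrophil-like cells of 10000 to 20000 UMIs the ratio was 2.32 (main value 1.37). The 17 lower departures were 11 in male cells and 2 at 1.5-fold. Higher departures, 1 in the main setting, numbered 2 at 10% mitochondrial UMIs or without the top 8%, and 3 with the shift from summed UMIs. They numbered 3 in female cells, all in neutrophil-like cells, and 0 in male cells or at 1.5-fold. Rpl22l1 departed higher in 0 classes in female and in male cells. Neutrophil-like makeup (8 higher, 24 lower) was 1 and 0 in female cells and 5 and 6 with second-lineage cells. The cause of these changes was not tested. Leaving out the 32 shared barcodes changed none of these counts. Second-lineage, per-cell, rRNA, depth-band and shared-barcode settings were chosen after seeing the data. No paired analysis was possible because each condition has 1 library, which also allows no library to be left out. Depth limits rare members: Rpl39l and Rpl10l were not compared.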
